A study of Mus musculus with 6 samples.

Results

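A set of genes that mark the muscle stem cell or carry Notch signalling were followed in whole mouse muscle that had lost the histone variant H2A.Z from its fibres. The 10 genes were taken by name from the 28510 genes deposited, and 10 of 10 were found and passed the filter on low counts. Pax7 and Calcr mark satellite cells, Dll1 and Jag1 encode Notch ligands, Notch1, Notch2 and Notch3 encode receptors, and Hes1, Hey1 and Heyl are target genes. The 6 libraries held RNA of tibialis anterior, a leg muscle, from C57BL/6 mice aged 12 months. The 3 WT libraries were H2A-Z.1flox/flox and also H2A-Z.2 flox/flox, with HSA Cre WT, so the controls carried floxed alleles of both H2A.Z genes and, by the label, a wild-type Cre status. The 3 KO libraries were H2A-Z.1-/- and also H2A-Z.2-/-, with HSA Cre+, so the comparison asks what differs when both H2A.Z genes are deleted by this Cre. HSA is the human skeletal actin promoter, which is active in muscle fibres and not in resting satellite cells, vessels or connective tissue.

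Satellite cells are the stem cells of skeletal muscle and lie between a fibre and its basal lamina. Pax7 is the transcription factor that defines them, and Calcr, the calcitonin receptor, is found on the resting cells and lost on activation. Notch signalling keeps them at rest. A ligand on one cell binds a receptor on its neighbour, proteases cut the receptor, and the released intracellular part joins the DNA-binding protein Rbpj and a Mastermind coactivator to switch on Hes and Hey genes, which encode repressors of the basic helix-loop-helix type. In muscle the same pathway also works in endothelial cells, which use Notch1, Notch4, Dll4 and Jag1, and in the mural cells around vessels, where Notch3 is the leading receptor. In whole muscle, fewer cells of a type and less RNA per cell cannot be told apart.

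The promoter sequences of the 3 receptor genes and of Pax7 are given because Notch2 is the member that passed the test below, and the others are its fellow receptors and the defining stem cell factor. Each window runs from 250 bases before to 50 after the start site, read 5′ to 3′ on the gene's strand, from RefSeq on the build GRCm38.p6, which is not the authors' build. Capitals mark CG dinucleotides. The window of Notch2 lies at chr3:98013288-98013587 on the plus strand, that of Notch1 at chr2:26503773-26504072, that of Notch3 at chr17:32166841-32167140 and that of Pax7 at chr4:139832919-139833218, the last 3 on the minus strand.
Notch2: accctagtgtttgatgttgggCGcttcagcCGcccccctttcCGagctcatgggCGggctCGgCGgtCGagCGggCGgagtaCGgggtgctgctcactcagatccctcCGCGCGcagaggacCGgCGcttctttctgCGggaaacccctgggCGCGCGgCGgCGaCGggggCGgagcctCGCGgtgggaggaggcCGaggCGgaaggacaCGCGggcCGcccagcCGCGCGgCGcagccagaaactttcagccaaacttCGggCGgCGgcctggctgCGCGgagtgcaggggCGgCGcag
Notch1: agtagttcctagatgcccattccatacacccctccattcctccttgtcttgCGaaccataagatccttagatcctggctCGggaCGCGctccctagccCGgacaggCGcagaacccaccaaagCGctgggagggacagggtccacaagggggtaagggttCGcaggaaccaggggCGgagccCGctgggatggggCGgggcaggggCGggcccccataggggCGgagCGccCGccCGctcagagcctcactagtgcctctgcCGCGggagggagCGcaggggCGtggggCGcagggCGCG
Notch3: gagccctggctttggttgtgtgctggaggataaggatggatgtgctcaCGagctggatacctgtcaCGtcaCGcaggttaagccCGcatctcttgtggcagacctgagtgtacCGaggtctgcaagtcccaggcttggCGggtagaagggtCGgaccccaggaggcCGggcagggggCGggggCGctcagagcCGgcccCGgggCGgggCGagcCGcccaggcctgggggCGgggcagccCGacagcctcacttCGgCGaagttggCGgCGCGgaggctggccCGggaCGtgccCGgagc
Pax7: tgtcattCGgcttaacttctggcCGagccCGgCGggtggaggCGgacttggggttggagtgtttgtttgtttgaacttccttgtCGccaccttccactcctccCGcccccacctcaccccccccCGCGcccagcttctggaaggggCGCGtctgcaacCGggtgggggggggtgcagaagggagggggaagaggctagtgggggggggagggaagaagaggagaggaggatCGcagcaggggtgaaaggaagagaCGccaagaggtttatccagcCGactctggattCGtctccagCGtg
Notch2 had 41 CG dinucleotides and 73.0% G and C, Notch3 25 and 70.0%, Notch1 23 and 68.3%, and Pax7 17 and 63.7%, against medians of 7 and 52.7% over 32851 windows of the same length. Windows were found for 7 of the 10 genes (9 windows, since Calcr and Dll1 have a pair each), and 8 of the 9 exceeded the median number of CG dinucleotides. The target genes Hes1, Hey1 and Heyl had no window, so the motif counts that follow do not cover them. The core motif of Rbpj, TGGGAA on either strand, was in 0 of the 9 windows and in 25.6% of all windows. The E-box CACGTG, which reads the same on both strands and to which Hey proteins can bind, was in 0 of the 9 and in 7.15% of all. These letters are a description of the windows only.

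Total counts ran from 35456883 (WT replicate 2) to 102919416 (KO replicate 3). Both targeted genes were low in the KO libraries. H2afz (H2A-Z.1) stood at 16.5 ± 1.75 CPM in WT and 4.60 ± 0.514 in KO, and H2afv (H2A-Z.2) at 18.6 ± 2.42 and 4.14 ± 0.405 CPM (mean ± SD, n = 3 each, adjusted p = 4.42e-05 and 2.42e-05 by edgeR). CPM is the count per 1e+06 counts after TMM scaling, which sets the libraries on a common scale. The fibre markers Acta1 and Ckm were present at 24083 and 24226 CPM in WT (means, n = 3).

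Of the 10 genes, Notch2 was the 1 that changed. It rose 1.72-fold in KO, and its 3 KO libraries lay above its 3 WT libraries. The other 9 genes did not pass the test, and in each of them the groups overlapped. A gene is said to have risen or fallen where edgeR's quasi-likelihood test gave a Benjamini-Hochberg adjusted p below 0.05 over the 16628 genes tested. Of these, 13.5% rose and 12.4% fell, 25.9% in all, so 1 of 10 was under the background. All KO libraries lay above all WT libraries in 21.6% of the genes tested, and the groups did not overlap in 42.6%. The median log2 fold change was 0.09 over the 10 genes and 0.01 over all genes tested.

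**Figure D1:**
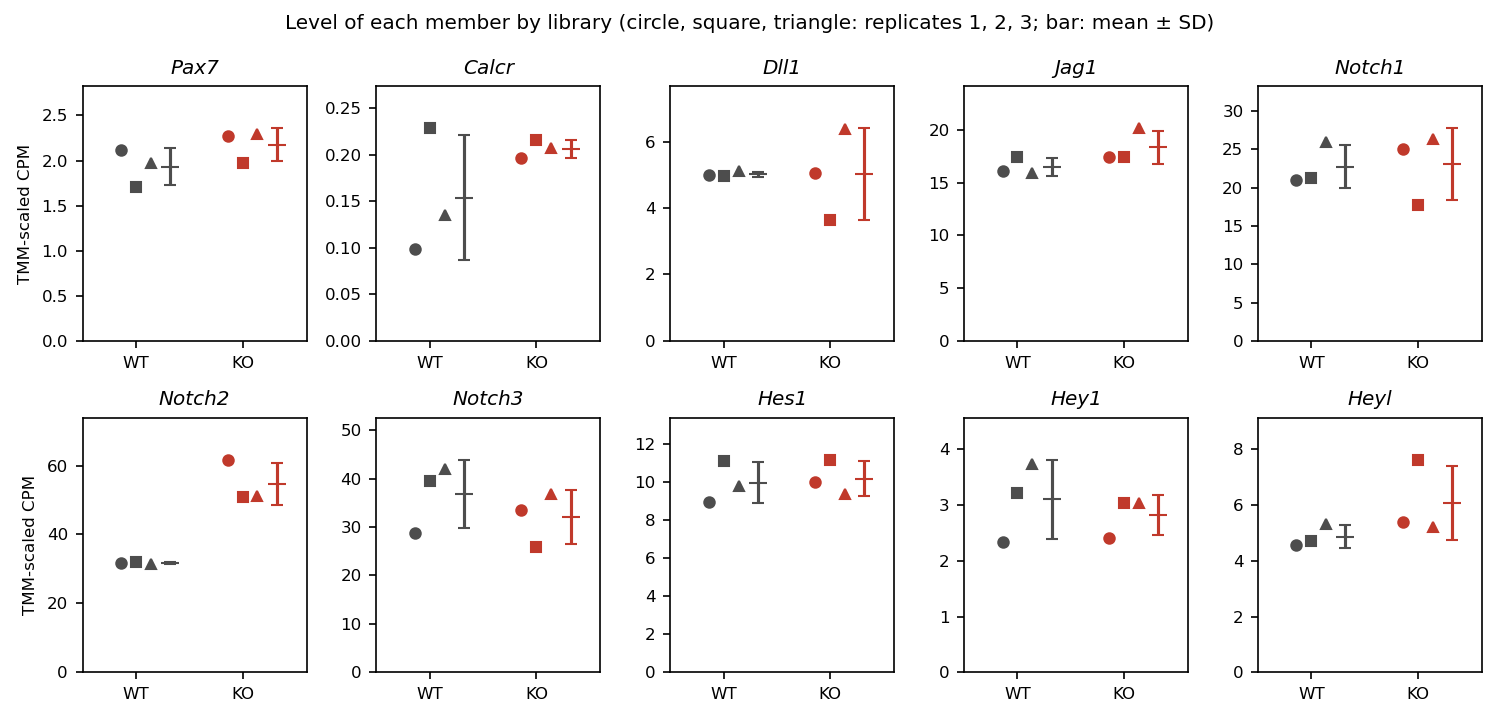
Level of each of the 10 genes in every library, in TMM-scaled CPM on linear axes that start at 0; circles, squares and triangles are replicates 1, 2 and 3 of WT (grey) and KO (red), and bars are the mean ± SD. The Notch2 libraries of KO sit between 51.0 and 61.6 CPM, all above the WT libraries at 31.4 to 32, while the groups overlap in the other 9 panels.

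The stem cell factor Pax7 was at a low, even level. It stood at 2.11, 1.71 and 1.98 CPM in WT replicates 1 to 3 and at 2.27, 1.97 and 2.29 CPM in KO replicates 1 to 3, from 60 to 244 counts per library. KO replicate 2 lay inside the WT range and the other KO libraries just above it. The fold change was 1.12 with a 95% interval of 0.831 to 1.52 (adjusted p = 0.578 by edgeR), so a rise of more than 1.52-fold or a fall below 0.831 lay outside the interval.

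Calcr was close to the limit of what the depth could show, with 8, 8 and 9 counts in the WT libraries and 20, 14 and 22 in the KO libraries. In CPM these were 0.0983, 0.228 and 0.135 in WT and 0.196, 0.215 and 0.207 in KO. The WT library with the fewest reads, replicate 2, had the highest value of all 6. The fold change of 1.42 had an interval of 0.709 to 2.86 (adjusted p = 0.450 by edgeR). A modest rise or fall, inside that interval, could not be told from no change at this depth. Per Pax7 count, Calcr stood at 0.0827 ± 0.0452 in WT and 0.0954 ± 0.0123 in KO, and Myf5, the myogenic factor that most satellite cells also express, at 0.574 ± 0.0384 and 0.526 ± 0.0585 (ratio of raw counts, mean ± SD, n = 3 each). Both ratios overlapped between groups.

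Among 17 other satellite cell markers, 5 rose and 1 fell, with a median log2 fold change of 0.39. These were 29.4% and 5.88% of the markers, beside 13.5% and 12.4% of all genes tested. The largest rise was that of Odz4, a teneurin, which stood at 1.33, 1.82 and 1.36 CPM in WT and 6.63, 6.00 and 6.72 in KO (log2 fold change 2.12 with an SE of 0.19, adjusted p = 6.64e-05 by edgeR). Megf10, a receptor that takes part in satellite cell proliferation, rose from 1.10 ± 0.259 to 2.82 ± 0.460 CPM (1.38, SE 0.24). Chodl, a lectin-like membrane protein, rose by 1.03 (SE 0.28), and the chemokine receptor Cxcr4 by 0.71 (SE 0.20). Sdc3, a cell surface proteoglycan, also rose (0.81, SE 0.24). Pax3, the close relative of Pax7, fell by 0.77 on the log2 scale (SE 0.26, adjusted p = 0.0492 by edgeR). The summed level of the 17 markers was 227 to 248 CPM in WT and 266 to 325 in KO, without overlap. This sum gives most weight to abundant genes and was not taken as a measure of satellite cell number. The highest were Itga7, at a mean of 81.2 CPM in WT and 95.2 in KO, and Cd34, at 42.4 and 56.8, and neither passed. Leukocyte markers rose beside the satellite cell markers, and the part of leukocytes in these rises was not tested.

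The other 11 of the 17 markers did not pass, Myf5 and Cdh15 among them. Myf5 stood at 1.25, 1.03 and 1.05 CPM in WT and 1.11, 1.17 and 1.136 in KO, and Cdh15, the adhesion protein M-cadherin, at 16.5 ± 2.54 and 13.5 ± 4.70 CPM. The number of risen markers was 2 when WT replicate 1 or WT replicate 2 was left out, 3 when WT replicate 3 or KO replicate 1 was, and 8 when KO replicate 2 was. The rises of Odz4 and Megf10 were called in 16 of 16 alternative analyses, those of Chodl and Cxcr4 in 12 each and that of Sdc3 in 11. The fall of Pax3 was called in 7 of 16.

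Genes of myoblast differentiation and fusion were higher. Of 6, 5 rose (83.3%, beside 13.5% of all genes tested), with a median log2 fold change of 2.84. Myog, the factor that starts differentiation, rose by 2.68 (SE 0.18). The perinatal myosin gene Myh8 rose by 2.99 (SE 0.26). The fusion genes Tmem8c (myomaker) and Gm7325 (myomixer) also rose, from 46, 2 and 7 counts in WT to 640, 353 and 637 in KO for the former and from 12, 0 and 1 to 284, 150 and 144 for the latter. Myod1, which acts before Myog, stood at 0.28 (SE 0.22, adjusted p = 0.379 by edgeR). Which cells of the whole muscle held these RNAs, fibres or others, was not tested.

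In satellite cells, Notch signalling induces collagen V, which acts on Calcr. Of the 3 collagen V genes, Col5a3 rose, from 28.4 ± 0.319 CPM in WT to 39.6 ± 5.42 in KO (a log2 difference of 0.48, SE 0.14, adjusted p = 0.0298). Its WT libraries were at 28.2, 28.7 and 28.2 CPM and its KO libraries at 42.2, 43.1 and 33.3. The call was lost without any WT library or KO replicate 1, with an adjusted p of up to 0.202 over all alternatives. Col5a1 and Col5a2 stood at log2 fold changes of 0.29 (SE 0.17) and 0.47 (SE 0.19) and did not pass. Fibroblasts make these chains too. Of 11 fibroblast markers 5 rose (45.5%, beside 13.5% of all genes tested), and their part in the result was not tested.

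The calcitonin receptor has a sister receptor, Calcrl, and shares with it the accessory Ramp proteins, which set the peptide hormone that is bound. In this family the peptide gene Calcb, which encodes a calcitonin gene-related peptide, rose. It had 0 counts in each WT library and 52, 27 and 45 counts in the KO libraries. Against a floor of 3 counts over the WT group, its KO level of 0.450 CPM was at least 27.5-fold higher (adjusted p = 4.23e-04 by edgeR). Its paralogue Calca had 0, 1 and 0 counts in WT and 10, 4 and 12 in KO, too few to be tested. The pair is similar in sequence, so reads could have been divided between them. Ramp1 stood at 35.4, 21.5 and 36.7 CPM in WT and 46.1, 39.7 and 52.9 in KO, without overlap, at a log2 fold change of 0.56 (SE 0.20, adjusted p = 0.0633 by edgeR). Calcrl had a log2 fold change of 0.00 (SE 0.20).

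Neither ligand gene changed. Dll1, which signals to satellite cells from fibres and from committed myoblasts, stood at 4.99, 4.96 and 5.10 CPM in WT and 5.07, 3.63 and 6.37 in KO. The WT libraries were close together and the KO libraries lay on both sides of them, with KO replicate 2 lowest and KO replicate 3 highest. The fold change was 1.00 (interval 0.732 to 1.38, adjusted p = 0.988 by edgeR).

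Jag1, a ligand of vessels and other cells, stood at 16.1, 17.4 and 15.9 CPM in WT and 17.5, 17.4 and 20.1 in KO. The highest WT library, replicate 2, matched the 2 lower KO libraries. Its fold change was 1.11 (interval 0.910 to 1.36, adjusted p = 0.427 by edgeR). Set against the endothelial marker Pecam1 in the same library, Jag1 counts were 0.302, 0.333 and 0.350 per Pecam1 count in WT and 0.466, 0.372 and 0.437 in KO, without overlap (log2 difference 0.37, exact two-sided permutation p = 0.1, adjusted p = 0.4 over 14 ratios). With 3 libraries against 3, 0.1 is the smallest p that test can give. Such ratios of raw counts do not depend on how the libraries are scaled.

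Of the receptors, Notch2 rose. Its values were 31.7, 32 and 31.4 CPM in WT and 61.6, 51.0 and 51.1 in KO, from 1123 to 2580 counts per WT library and 3312 to 6274 per KO library. The WT libraries lay close together, and KO replicate 1 was the highest. The mean was 31.7 ± 0.311 CPM in WT and 54.6 ± 6.10 in KO (n = 3 each), a log2 fold change of 0.78 (SE 0.14, 95% interval 0.48 to 1.08, adjusted p = 0.00254 by edgeR). This fold change lay above those of 86.3% of the genes tested. The call was kept in 16 of 16 alternative analyses, with log2 fold changes from 0.69 to 1.00 and an adjusted p of at most 0.0380. In the authors' deposited table, Notch2 has a log2 fold change of 0.76 with an adjusted p-value of 4.43e-06, and the other 9 genes have adjusted p-values from 0.471 to 0.995.

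Notch1, the receptor of satellite cells and endothelium, stood at 21.03, 21.3 and 26.0 CPM in WT and 25.0, 17.7 and 26.4 in KO, so the lowest and the highest library were both KO. Its fold change was 1.01 (interval 0.778 to 1.32, adjusted p = 0.953 by edgeR). Notch3, which is led by mural cells and is also found in satellite cells, stood at 28.8, 39.6 and 42.1 CPM in WT and 33.5, 25.8 and 36.9 in KO. Its WT replicate 1 lay well under the other WT libraries and its KO replicate 2 was the lowest of all. The fold change was 0.872 (interval 0.660 to 1.15, adjusted p = 0.464 by edgeR).

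Ratios within a library set the receptors against each other. Notch1 counts per Notch2 count were 0.664, 0.665 and 0.828 in WT and 0.407, 0.347 and 0.517 in KO, a log2 difference of -0.77. Notch3 counts per Notch2 count were 0.910, 1.24 and 1.34 in WT and 0.543, 0.507 and 0.722 in KO, a log2 difference of -0.97. Neither ratio overlapped between groups, and with any library left out the differences ran from -0.93 to -0.64 and from -1.14 to -0.86. Each had the smallest exact two-sided permutation p that 3 libraries against 3 allow, 0.1 (adjusted p = 0.4 over 14 ratios). No ratio could pass 0.05 in this design, so whether Notch2 differed from the other receptors is not settled by it. The fourth receptor, Notch4, which is endothelial, stood at 9.17 ± 2.65 CPM in WT and 7.46 ± 1.05 in KO (a log2 difference of -0.30, SE 0.21, adjusted p = 0.328).

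**Figure D2:**
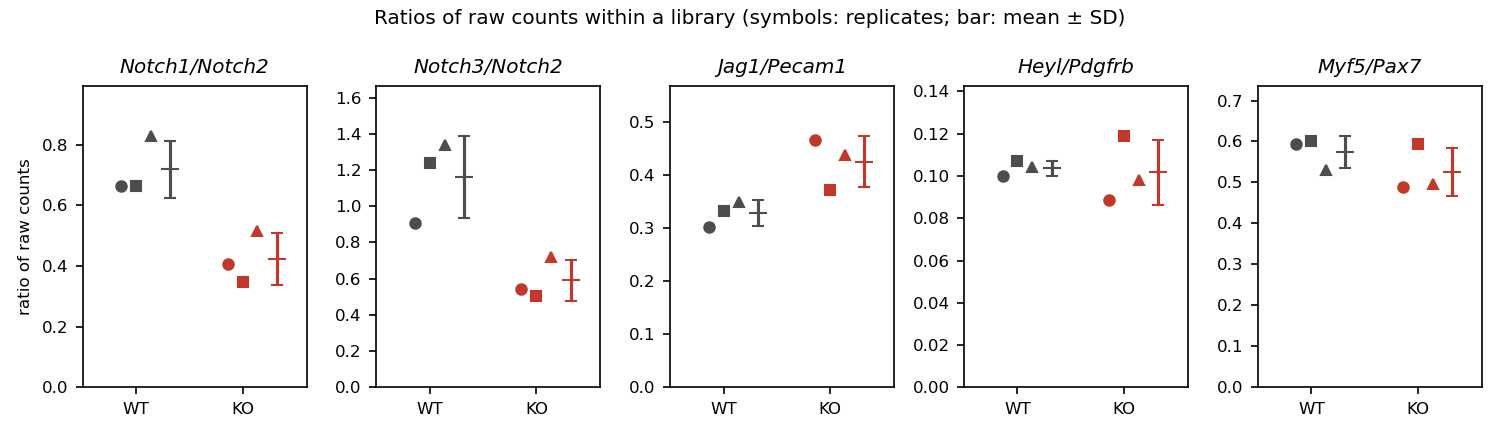
Ratios of raw counts within each library, on linear axes that start at 0; symbols are replicates 1, 2 and 3 of WT (grey) and KO (red), and bars are the mean ± SD. Notch1 and Notch3 per Notch2 are lower in all 3 KO libraries than in any WT library, Jag1 per Pecam1 is higher in all 3, and Heyl per Pdgfrb and Myf5 per Pax7 overlap. Of the 14 ratios taken, all those not drawn overlap as well.

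Of the 3 target genes, 0 passed in edgeR, where 0 had an unadjusted p under 0.05, and likewise 0 in DESeq2 and in limma-voom. Hes1, the most widely used Notch target, stood at 8.99, 11.1 and 9.82 CPM in WT and 10.0, 11.2 and 9.37 in KO, with the groups fully interleaved. Its fold change was 1.02 (interval 0.813 to 1.29, adjusted p = 0.899 by edgeR). Hey1, expressed in satellite cells and vessels, stood at 2.35, 3.22 and 3.74 CPM in WT and 2.42, 3.03 and 3.03 in KO. All 3 KO values lay inside the WT range, and the fold change was 0.913 (interval 0.654 to 1.27, adjusted p = 0.696 by edgeR).

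Heyl, a target in satellite and mural cells, stood at 4.56, 4.73 and 5.33 CPM in WT and 5.40, 7.62 and 5.23 in KO. KO replicate 2 was the highest by a wide margin and KO replicate 3 lay inside the WT range. The fold change was 1.25 (interval 0.934 to 1.66, adjusted p = 0.247 by edgeR). Per count of Pdgfrb, a receptor that marks mural cells, Heyl stood at 0.0999, 0.107 and 0.104 in WT and 0.0886, 0.119 and 0.0980 in KO. The means were alike, at 0.104 ± 0.00352 and 0.102 ± 0.0155 (SD, n = 3 each), while the KO libraries spread beyond the WT range on both sides.

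KO replicate 2 had the lowest value of all 6 libraries for Dll1, Notch1 and Notch3 and the highest for Heyl. For Hes1 it lay level with WT replicate 2. Mitochondrial genes took 32.1% of its counts, against 19.9% to 25.5% in the other 5 libraries, and their part in these values was not tested.

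The members could be ranked against each other only per length, and the ranking turned on which length was used. Per kb of the longest transcript in the GENCODE M21 annotation, an alternative chosen after the data were seen, Hes1 led in WT at 6.79 ± 0.729 CPM per kb. It was followed by Notch3 at 4.59 ± 0.876, Notch2 at 3.02 ± 0.0296, Jag1 at 2.94 ± 0.150 and Notch1 at 2.40 ± 0.294. Then came Dll1 at 1.40 ± 0.0214, Hey1 at 1.28 ± 0.291 and Heyl at 1.07 ± 0.0891 CPM per kb. Pax7 at 0.330 ± 0.0350 and Calcr at 0.0408 ± 0.0178 were last (mean ± SD, n = 3 each). The ranges of neighbours overlapped for Notch2 and Jag1, Dll1 and Hey1, and Hey1 and Heyl, and not for the other 6 pairs of neighbours. In KO, Notch2 stood above Notch3, at 5.20 ± 0.581 against 3.999 ± 0.706 CPM per kb, without overlap, and Hes1 still led at 6.94 ± 0.623.

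The deposited per-kb signal, together with the counts, gives back the gene length the authors used, and it was short for several members. For Notch1 the implied length was 446.5 bases, although its longest annotated transcript has 9488, which is 21.2 times as much. For Heyl these were 623 and 4537 bases, for Dll1 738 and 3581, and for Hes1 529.5 and 1468. For Notch2 and Notch3 they were close, at 10191 and 10500 and at 8044 and 8016 bases. For 5 of the 10 members the implied length lay within 1% of the median of the gene's annotated transcripts. Over 16977 genes with more than 1 annotated transcript, 39.8% lay within 1% of that median and 9.16% within 1% of the longest. On the implied lengths Notch1 led the WT order at 51.0 ± 6.24 CPM per kb, far above Notch3 at 4.58 ± 0.873 and Notch2 at 3.11 ± 0.0305. Notch1 thus had rank 1 of the 10 members on the implied lengths and rank 5 on the longest transcripts. Comparisons of KO with WT within a gene do not depend on the length.

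**Figure D3:**
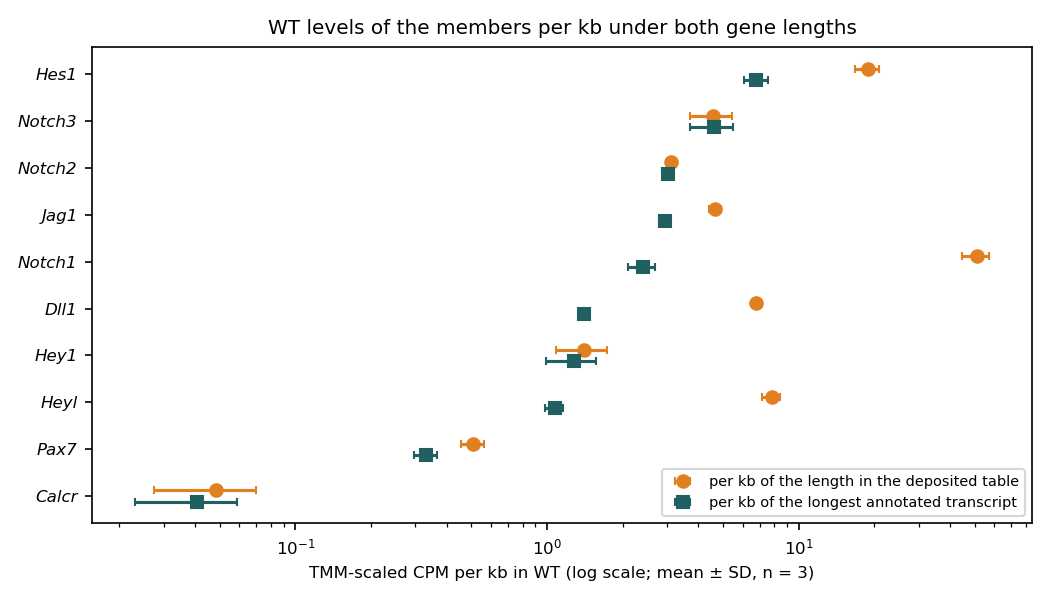
WT level of each of the 10 genes in TMM-scaled CPM per kb on a log axis, mean ± SD of 3 libraries, with the length implied by the deposited signal (orange circles) and with the longest annotated transcript (green squares). Notch1 falls from 51.0 to 2.40 and Heyl from 7.82 to 1.07 CPM per kb, while Notch2 and Notch3 hardly move.

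The rest of the Notch pathway moved in both directions. Of 41 other pathway genes, 40 were found and 39 tested, of which 3 rose and 6 fell, with a median log2 fold change of 0.04. These were 7.69% and 15.4% of the pathway genes, beside 13.5% and 12.4% of all genes tested. The rises were 2 of 6 genes of the nuclear complex and 1 of 10 of cleavage, and the falls 2 of 5 genes of glycosylation, 3 of 10 of cleavage and 1 of 8 of turnover.

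The coactivators Maml2 and Maml3 rose. Maml2 stood at 5.15, 6.21 and 6.30 CPM in WT and 9.09, 12.3 and 8.05 in KO (a log2 difference of 0.74, SE 0.19, adjusted p = 0.0161). Maml3 stood at 5.08, 3.90 and 4.86 CPM in WT and 6.91, 7.11 and 6.70 in KO (0.57, SE 0.16, adjusted p = 0.0255 by edgeR). In both genes every KO library lay above every WT library. Their partner Rbpj had 25.9 ± 2.67 CPM in WT and 32.1 ± 6.76 in KO (0.31, SE 0.17) and did not pass.

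Of the proteases, Adam17, a surface protease that can cut Notch receptors, rose by 0.47 on the log2 scale (SE 0.15, adjusted p = 0.0409 by edgeR). Furin, which cleaves receptors during their transport, had a log2 fold change of -0.46 (SE 0.14). Of the gamma-secretase genes, Psen2 stood at -0.73 (SE 0.19) and Aph1a at -0.48 (SE 0.16), and both fell. Ncstn, the gene of the subunit nicastrin, stood at 0.08 (SE 0.12) and did not pass.

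Of the enzymes that add sugars to the receptors, Poglut1 fell, from 10.4 ± 0.397 CPM in WT to 6.54 ± 1.17 in KO (a log2 difference of -0.67, SE 0.16, adjusted p = 0.0132). Rfng, the radical fringe gene, also fell (-0.54, SE 0.18), while Lfng, lunatic fringe, stood at 0.54 (SE 0.23, adjusted p = 0.104 by edgeR). Dtx3, of the deltex family of ubiquitin ligases, fell from 26.1 ± 6.89 to 14.7 ± 0.254 CPM (-0.83, SE 0.18, adjusted p = 0.00705 by edgeR).

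The remaining ligands and targets did not pass. Dll4, the endothelial ligand, stood at 7.34 ± 1.64 CPM in WT and 6.66 ± 0.959 in KO, and Jag2 at 13.4 ± 0.628 and 13.0 ± 4.79. The feedback inhibitor Nrarp, which Notch itself induces, stood at 3.76 ± 0.878 and 3.63 ± 0.720 CPM. Hey2, a low target gene with 15 to 49 counts per WT library and 79 to 96 per KO library, had a log2 fold change of 1.02 (SE 0.35, adjusted p = 0.0531 by edgeR) and no overlap between groups. It passed in 6 of 15 alternative analyses.

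These pathway counts changed with the libraries used, and so did the counts over all genes. Over all genes, 2249 rose and 2062 fell with all libraries. These counts were 1533 and 1234 without WT replicate 1, and 1391 and 1168 without KO replicate 1. Without WT replicate 1, 0 of the pathway genes rose and 1 fell in edgeR, and without KO replicate 1, 1 rose and 2 fell. When WT replicate 3 or KO replicate 2 was left out, 3 fell. Leaving out WT replicate 2 gave 2 risen and 5 fallen pathway genes, and leaving out KO replicate 3 gave 3 and 4. With library size alone, 9 rose and 1 fell, and the median change over all genes went from 0.01 to 0.22. The fall of Dtx3 was called in 16 of 16 alternative analyses, and the fall of Psen2 and the rise of Maml2 in 14 each. The fall of Poglut1 was called in 12, the rises of Maml3 and Adam17 in 11 and 10, and the falls of Aph1a, Furin and Rfng in 8, 6 and 5.

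**Figure D4:**
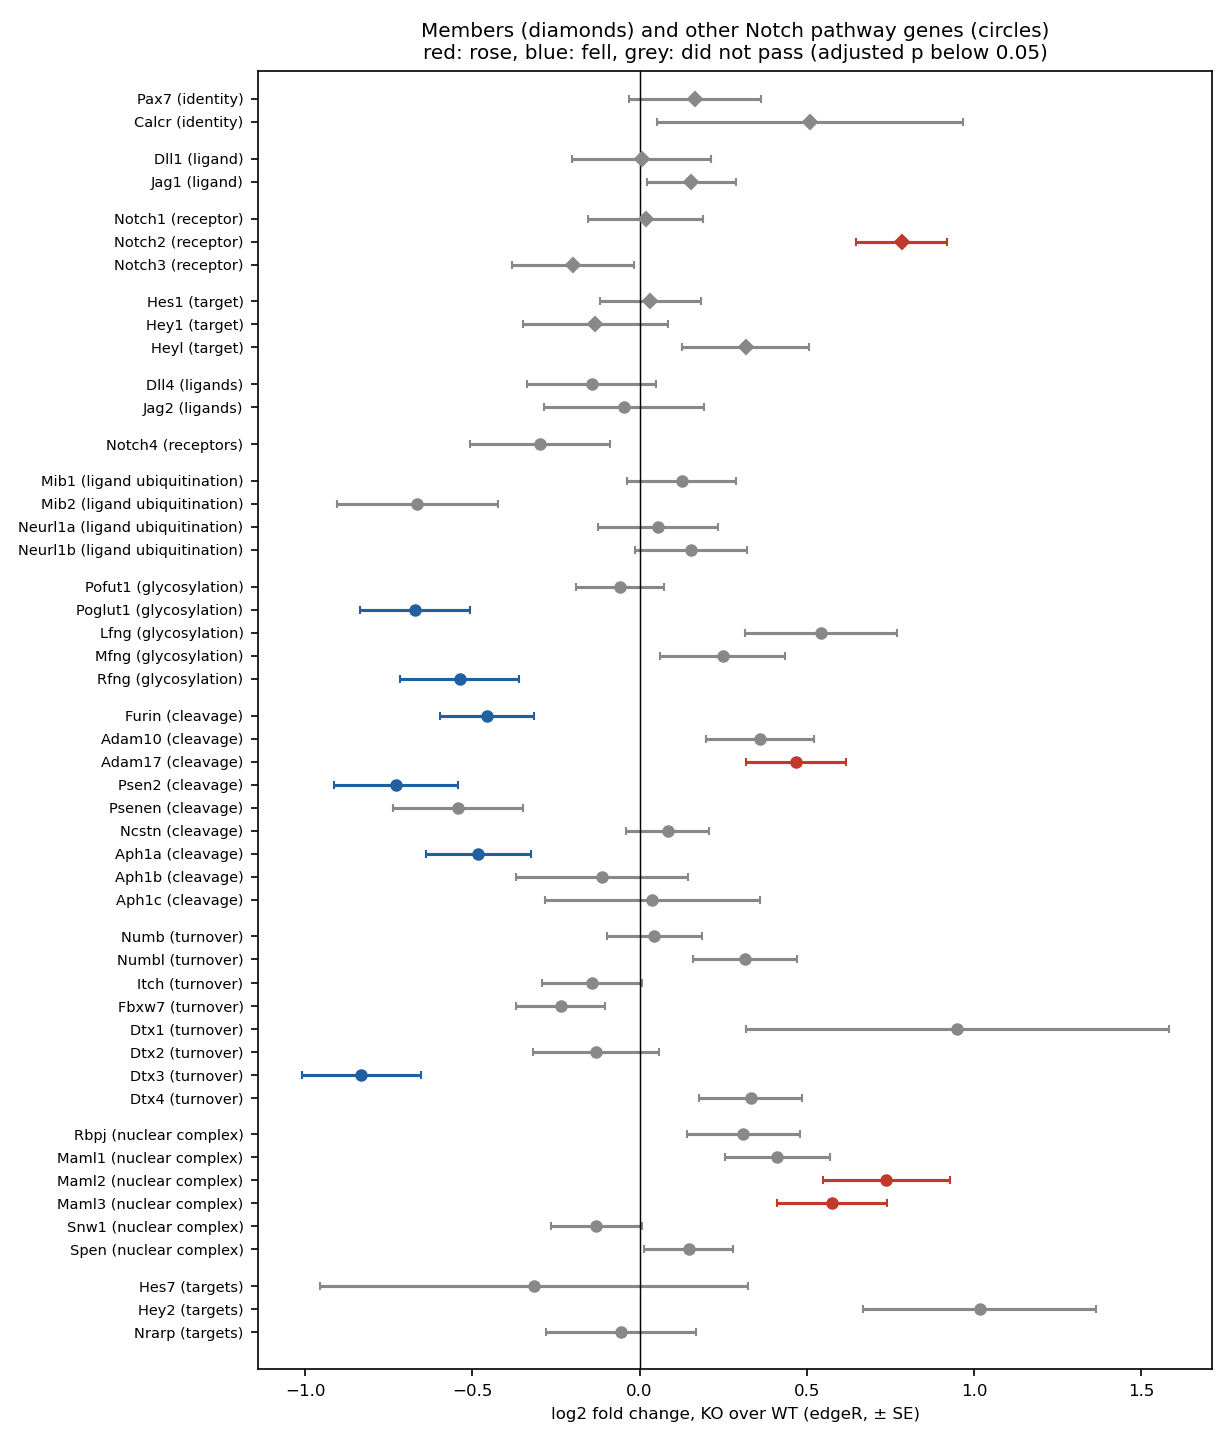
Log2 fold change of KO over WT with its SE from edgeR for the 10 members (diamonds) and other Notch pathway genes (circles), grouped by role; red genes rose, blue genes fell and grey genes did not pass. Notch2 is the red diamond at 0.78, Dtx3 the leftmost blue circle at -0.83.

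Since Notch genes are also used by vessels, markers of the other cells were read beside them. Of all genes tested, 13.5% rose and 12.4% fell. Of 14 endothelial markers, 0 rose and 1 fell, Vwf, from 45.6 ± 4.05 CPM in WT to 28.6 ± 3.91 in KO. The defining markers Pecam1 and Cdh5 stood at log2 fold changes of -0.22 (SE 0.15) and -0.11 (SE 0.15). The summed endothelial level was 417 to 483 CPM in WT and 317 to 395 in KO, without overlap. The TMM-scaled sum over all genes deposited was 1010470 to 1134570 CPM in WT and 867903 to 966205 in KO, also without overlap. Whether the sums of the marker lists separate under other scalings was not tested. Of 12 mural markers, Cspg4 rose and Cnn1 fell, and the summed level overlapped, at 744 to 861 CPM in WT and 756 to 919 in KO. The defining markers Pdgfrb and Rgs5 stood at 0.34 (SE 0.14) and 0.17 (SE 0.20) and did not pass.

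Leukocyte markers were higher in KO. Of 10, 8 rose (80%, beside 13.5% of all genes tested). Among them were the defining markers Ptprc at a log2 fold change of 1.91 (SE 0.25) and Cd68 at 1.51 (SE 0.36). The summed leukocyte level was 67.0 to 150 CPM in WT and 212 to 312 in KO. Of 11 fibroblast markers, 5 rose (45.5%), among them Pdgfra (0.66, SE 0.22), and Col1a1 stood at 0.58 (SE 0.29). Their summed level overlapped, at 797 to 1182 CPM in WT and 1117 to 1939 in KO. No marker of these lists was at 0 in all libraries. KO replicate 2 had the highest leukocyte sum, to which Lyz2 gave 163 CPM, and KO replicate 1 had the highest Notch2 level. Single markers differed in order. Ptprc stood at 25.5, 20.5 and 11.7 CPM in KO replicates 1 to 3, and Cd68 at 13.1, 8.57 and 7.59. Csf1r stood at 41.6, 45.6 and 34.0 CPM there. In WT replicates 1 to 3, Ptprc was at 5.23, 5.27 and 4.88 CPM and Cd68 at 5.18, 3.51 and 1.53. In WT the leukocyte sum of replicate 3 was less than that of replicates 1 and 2 (67.0 against 150 and 139 CPM), with Notch2 at 31.4, 31.7 and 32 CPM in the same libraries. The order of 3 libraries per group does not settle where Notch2 rose. The part of leukocytes and fibroblasts in the rise of Notch2 was not tested. Of 6 Schwann cell markers 1 rose, Pmp22, with Sox10 at 0.28 (SE 0.31), and 6 of 6 had positive log2 fold changes. Their summed level was 27.2 to 36.5 CPM in WT and 40.9 to 51.9 in KO, without overlap. Of 10 fibre markers 0 rose and 2 fell, Tnnt3 and Mybpc2, and 1 of 10 had a positive log2 fold change, with a median of -0.45. Their summed level was 258464 to 281267 CPM in WT and 174236 to 223786 in KO, also without overlap. The sum over all genes was lower in KO as well, and other scalings of these sums were not tested. The part of the cells of these lists in the members' values was not tested.

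**Figure D5:**
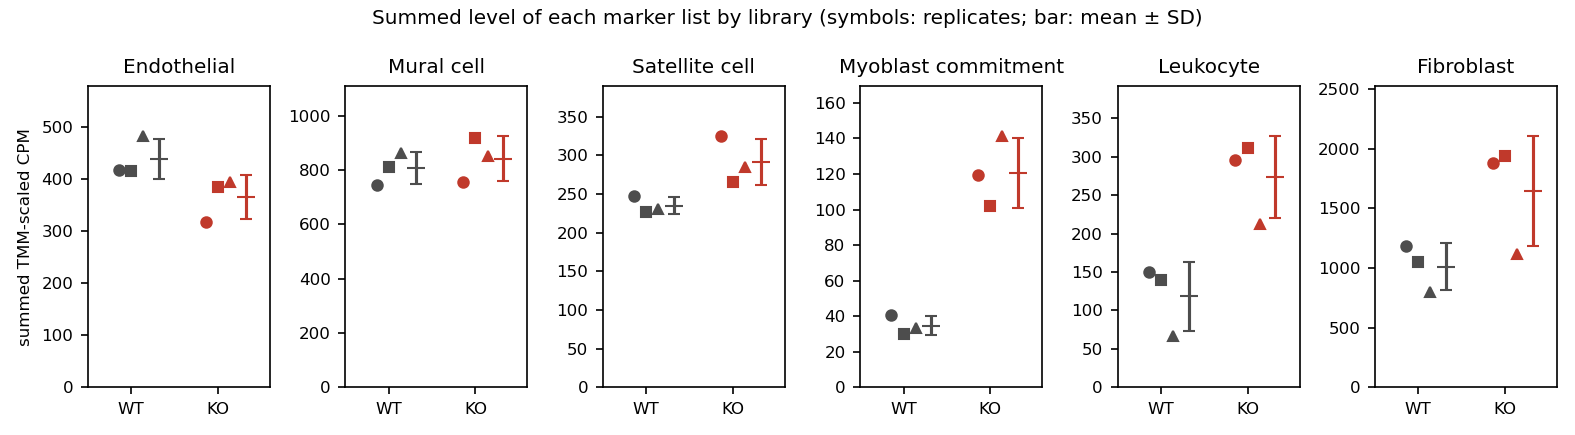
Summed TMM-scaled CPM of 6 marker lists in every library, on linear axes that start at 0; symbols are replicates 1, 2 and 3 of WT (grey) and KO (red), and bars are the mean ± SD. The satellite cell, leukocyte and myoblast commitment sums are higher and the endothelial sums lower in all 3 KO libraries than in any WT library. The mural and fibroblast sums overlap. The sum over all genes, not drawn, is also lower in KO without overlap.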

How the data were processed

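RNA was measured in 6 tibialis anterior libraries, 3 WT and 3 KO. Per the labels' protocols, the kit kept strand and depleted ribosomal RNA. Tools named in the submitters' processing notes are TopHat2 2.0.14, Bowtie, HTSeq 0.6.1 and bcl2fastq 2.17.1.14, with mm9 as build. Annotation and strand setting: not given in the sources used here. Per the file headers, the authors deposited raw read counts per gene, used as they are. The deposited signal, normalized by the authors and divided by gene length in kb, served only to recover that length (count over signal and median-of-ratios size factor). The authors' log2 fold change and p-value are deposited as well, with no tool named, and are quoted for the members only.

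KO was compared with WT in edgeR 4.0.16 (R 4.3.3; TMM, filterByExpr by group, lowest count 10, lowest total 15, quasi-likelihood F test, no covariate), with Benjamini-Hochberg adjustment over 16628 genes. The SE is the log2 fold change over the square root of F. Of 137 list symbols, 135 were found. The labels do not say that each replicate is a separate animal; the p-values then cover only sample-to-sample spread, which may be technical. Numbers were not taken to pair samples (correlations of same-numbered deviations 0.111, 0.106 and 0.0518). The fit was tested on simulated data. Alternatives used DESeq2 1.42.0, limma 3.58.1 (voom), other scalings and filters, robust dispersion, a replicate block and left-out libraries. The members and lists were chosen with earlier results of these data known. Named genes are the members, the targeted genes, every called gene of the Notch, collagen V and calcitonin receptor lists with Dll4, Jag2, Notch4, Rbpj, Nrarp and Hey2, and in other lists up to 4 called genes of lowest p with the defining markers. Further names were chosen after their values were seen. Values of some list genes are not reported here. Figures were drawn with matplotlib 3.10.9.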

Additional observations from a re-analysis of the deposited data

How the results depend on the processing

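Notch2 was the 1 member called in each of the 16 alternative analyses, and 0 members fell in edgeR, DESeq2 or limma-voom (at an unadjusted p under 0.05 the count of members was 1, Notch2, in each of these, and 3 in edgeR with library size alone). H2afz and H2afv stayed called throughout. The log2 fold changes of Dll1, Notch1, Hes1, Hey1 and Notch3, none of which passed, were positive in 10, 11, 14, 2 and 1 of 16 alternatives. The counts over all genes and over the lists moved. With library size alone, 3418 genes rose and 1030 fell, 76.8% of the calls being rises against 52.2% with TMM, and with it 9 pathway genes rose and 1 fell, and 8 satellite cell markers rose and 0 fell. With both WT replicate 2 and KO replicate 1 removed, 1113 genes rose and 977 fell, 0 pathway genes rose and 2 fell, and 2 satellite cell markers rose and 0 fell. With each library left out in turn, 1391 to 2321 genes rose and 1168 to 2189 fell, 0 to 3 pathway genes rose and 1 to 5 fell, and 2 to 8 satellite cell markers rose and 0 to 1 fell. A filter of at least 1 CPM in 3 libraries left 3 fallen pathway genes and 0 fallen satellite cell markers, and median-of-ratios size factors 0 fallen satellite cell markers, Pax3 being the marker lost. Fewer samples were tested in the left-out analyses; beyond that, the cause was not tested.

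With the replicate block, 2457 genes rose and 2236 fell, 4 pathway genes rose and 7 fell, and Notch2 was called. The labels do not say whether equal numbers pair samples. Of the other group, each library correlated best with the one of its own number, though weakly, at 0.111, 0.106 and 0.0518. This is a hint from the data and not the design, and pairing is not settled.

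Lengths changed the levels per kb in WT, from the implied length to the longest transcript, from 51.0 to 2.40 CPM for Notch1, 18.8 to 6.79 for Hes1, 7.82 to 1.07 for Heyl, 6.80 to 1.40 for Dll1, 4.66 to 2.94 for Jag1, 3.11 to 3.02 for Notch2 and 0.510 to 0.330 for Pax7, because the divisor differs. Depth limits Calcr (8 to 22 counts per library) most.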
